A study of Drosophila melanogaster with 2 samples.

Results

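The X chromosome of adult male Drosophila melanogaster held 530 of the 2868 peaks in a ChIP-seq peak list of the CG5204-eGFP fusion protein, which is 18.5% (95% Wilson interval 17.1 to 19.9). All peaks of that list whose chromosome is the X were taken, and each was placed at its summit, the base of highest signal that the list gives. The list is the one that passed the irreproducible discovery rate (IDR) criterion, a filter on how well 2 replicates rank the same regions, and its coordinates are on build dm6. Peaks on 2L (536), 3L (576) and 3R (698) were used for comparison.

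There was 1 group of samples, with 2 biological replicates. Both were whole adult males, of unknown age, from a single stable transgenic line in which CG5204, the gene named kmg (kumgang), is fused to eGFP at its C-terminal end. Chromatin was sonicated to 200 to 800 bp and precipitated with an antibody against GFP. Control libraries were not analysed here, and neither were flies without the transgene, so a peak is a site called in the GFP precipitate of whole animals and cannot be assigned to a tissue. Peak lists hold no expression values, so the labelled source could not be checked against marker genes. Signal is the authors' peak value; its scale and the read depth are unknown here, and intervals on counts of peaks and genes therefore cover counting error only.

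Kmg has zinc fingers and is best known from male germ cells. In spermatocytes it recruits the chromatin remodeller Mi-2 and blocks promoters that belong to other cell types. Males carry a single X beside paired autosomes. In somatic cells of male flies the MSL complex, which contains the roX RNAs, binds the X and raises its transcription to balance it with the autosomes.

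The reference sequence around the strongest X sites is printed first. Shown are the strongest summits of each of 3 site classes, promoter, intron and intergenic. Each window covers the dm6 plus strand 75 bp to either side of the summit, from the Release 6 genome. Capitals mark matches on either strand to the motifs searched further on, here the TATA word TATAAA and the core CGATA of the insulator protein BEAF-32. The first windows lie within 500 bp of a transcription start site (TSS), at Ugalt, which encodes a UDP-galactose transporter, at the long noncoding RNA gene lncRNA:CR44619, and at Gapdh2, which encodes a glycolytic dehydrogenase.
Ugalt, chrX:2703816-2703966: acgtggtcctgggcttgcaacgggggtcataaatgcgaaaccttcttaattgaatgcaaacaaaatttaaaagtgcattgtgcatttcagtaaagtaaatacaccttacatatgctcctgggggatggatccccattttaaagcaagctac
lncRNA:CR44619, chrX:12751297-12751447: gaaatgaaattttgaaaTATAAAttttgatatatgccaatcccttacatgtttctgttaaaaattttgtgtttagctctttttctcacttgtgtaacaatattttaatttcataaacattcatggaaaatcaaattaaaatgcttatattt
Gapdh2, chrX:15867905-15868055: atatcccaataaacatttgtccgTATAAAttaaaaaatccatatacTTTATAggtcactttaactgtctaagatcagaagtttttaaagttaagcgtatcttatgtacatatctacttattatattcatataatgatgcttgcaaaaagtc
The next windows are the strongest X summits in introns over 500 bp from every TSS.
Tlk, chrX:3742138-3742288: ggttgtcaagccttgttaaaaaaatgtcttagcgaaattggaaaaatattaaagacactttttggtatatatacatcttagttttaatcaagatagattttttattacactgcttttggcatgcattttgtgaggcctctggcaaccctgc
CG32772, chrX:4910316-4910466: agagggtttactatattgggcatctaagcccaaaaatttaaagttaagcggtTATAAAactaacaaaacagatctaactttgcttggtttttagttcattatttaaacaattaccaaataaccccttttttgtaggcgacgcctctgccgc
norpA, chrX:4324915-4325065: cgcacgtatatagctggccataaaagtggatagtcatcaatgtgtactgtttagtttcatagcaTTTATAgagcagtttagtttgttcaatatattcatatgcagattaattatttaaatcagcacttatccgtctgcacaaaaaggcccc
The last ones are the strongest X summits in intergenic sequence over 500 bp from every TSS, each named for the gene with the nearest TSS.
out, chrX:19323879-19324029: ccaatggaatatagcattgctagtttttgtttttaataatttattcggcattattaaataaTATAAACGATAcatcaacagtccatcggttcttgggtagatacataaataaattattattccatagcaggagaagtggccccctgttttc
Myc, chrX:3371358-3371508: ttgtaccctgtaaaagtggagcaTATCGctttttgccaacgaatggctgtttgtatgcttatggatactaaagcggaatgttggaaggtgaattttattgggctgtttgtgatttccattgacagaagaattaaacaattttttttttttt
lncRNA:CR42794, chrX:5696472-5696622: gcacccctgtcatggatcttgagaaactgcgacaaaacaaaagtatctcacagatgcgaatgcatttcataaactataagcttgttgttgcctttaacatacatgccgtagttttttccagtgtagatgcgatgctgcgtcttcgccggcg
Of the 9 windows, those at Ugalt, Tlk and lncRNA:CR42794 held none of the searched words. The window at Gapdh2 held 2 TATA words and that at lncRNA:CR44619 held 1, and their G+C contents were 25.8% and 21.9%. Windows reaching 100 bp to either side of all 530 X summits averaged 36.1% G+C (SD 6.63), against 35.5% on 2L, 3L and 3R (SD 6.96), with 42.5% over the whole X.

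Peaks lay along almost the whole of the X, thinning towards its centromeric end. The first summit was at position 522634 and the last at 23005093. Cut into 10 equal parts from its tip, the X held 46, 46, 74, 78, 63, 62, 47, 45, 59 and 10 peaks. Parts 3 and 4 were the richest, also per gene, with 32.3 and 32.5 peaks per 100 protein-coding genes, and the last part the poorest, with 10.3. Counts on the autosomal arms also fell towards an end: the last of 10 parts of 2L held 24 peaks, that of 3L held 2 and the first of 3R held 0. Per 100 protein-coding genes the part of 2L held 12.2 peaks and that of 3L held 16.7. These parts of 3L and 3R contain only 12 and 1 protein-coding genes, so their low counts do not show few peaks per gene.

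**Figure D1:**
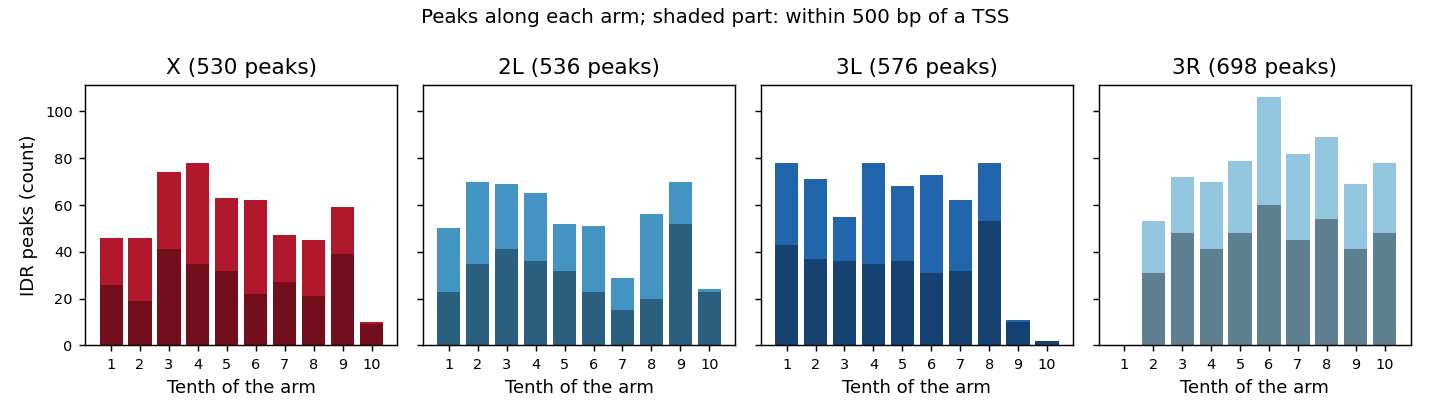
IDR peaks (count, vertical axis) in each of 10 equal parts of the X, 2L, 3L and 3R (horizontal axis, in coordinate order), with the dark part of each bar showing summits within 500 bp of a TSS. The X bars reach 78 in part 4 and drop to 10 in the last.

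Among the 23 whole windows of 1 Mb on the X, counts ran between 1 and 39 around a median of 24 (quartiles 16 and 30.5). The densest window, chrX:6000001-7000000, held 39 peaks, and its strongest promoter peaks were at CG43736 (signal 221), CG14434 (161), pigs (145) and CG42240 (143). The window chrX:8000001-9000000 held 34, among them promoter peaks at Sptr, the sepiapterin reductase gene (194), CAH3, a carbonic anhydrase gene (194), and CG2258 (191). At the other extreme, chrX:22000001-23000000 held 1 peak, at a signal of 64.4, although 44 protein-coding genes lie in that window. Its summit is in the 5' untranslated region of CG14615, 253 bp upstream of tilB, a gene of motile cilia. The window chrX:14000001-15000000 held 8 peaks over 88 protein-coding genes, the strongest at pdgy (219), which encodes an acyl-CoA synthetase.

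The longest stretch without a peak ran over 930057 bp, between summits at 21519427 and 22449484. It contains 30 protein-coding genes, and 19 regions of the unfiltered pooled list lie in it. A stretch of 541881 bp inside the arm, between summits at 11921261 and 12463142, contains 35 protein-coding genes and had 81 pooled regions, all weaker than any X peak of the IDR list. Consecutive X peaks lay a median of 10591 bp apart, against 13971 bp on 2L, 18534 bp on 3L and 16853 bp on 3R. The share with a neighbouring peak within 1000 bp was 27.2% on the X and 23.9% on the other arms together, and the 95% interval of that difference included 0 (-0.836 to 7.68 points).

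Per length, the X lay among the autosomal arms. It carried 22.5 peaks per Mb (95% Poisson interval 20.6 to 24.5), against 22.8 on 2L, 20.5 on 3L and 21.8 on 3R. Per 100 protein-coding genes it carried 24.1 peaks (22.1 to 26.3), against 20.2 on 2L, 21.0 on 3L and 20.4 on 3R, or 20.5 on these together (19.6 to 21.5). For values from 1 replicate alone, here and below, its 2868 strongest regions were taken. With the regions of replicate 1 alone the X carried 21.9 (19.9 to 23.9), against 21.8 on 3L and 20.9 on the 3 arms together (19.9 to 21.9). With those of replicate 2 alone it carried 24.3, against 20.2. The X makes up 17.6% of the length of the main arms and 15.7% of their protein-coding genes.

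Before the IDR filter the picture differed. The pooled list of 30000 regions, which includes background, gave 184 regions per Mb on the X, against 258 on 2L, 232 on 3L and 238 on 3R. Of the 4328 X regions, 12.2% (11.3 to 13.3) were in the IDR list, against 8.85% on 2L, 8.82% on 3L and 9.15% on 3R. The X exceeded those arms together by 3.3 points (95% Newcombe interval 2.27 to 4.38). A single replicate has no IDR list, so its 2868 strongest regions were set against all regions of its own list. The share on the X then exceeded that on those arms by 2.91 points in replicate 2 and by 2.01 points in replicate 1. Males have fewer copies of the X than of each autosome, and the part of copy number in the count of background regions was not tested.

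X peaks lay more often in introns and less often between genes than autosomal peaks. An intron held the summit of 308 X peaks (58.1%), against 44.6% of the 1810 peaks of 2L, 3L and 3R, a difference of 13.5 points (95% Newcombe interval 8.70 to 18.2). Each autosomal arm was below the X, with 45.1% on 2L, 44.8% on 3L and 44.0% on 3R. Intergenic sequence held 147 X summits (27.7%), against 42.5% on those arms together, a difference of -14.8 points (-19.1 to -10.2). The remaining X summits were 52 in 5' untranslated regions, 7 in 3' untranslated regions, 15 in other exons and 1 in a coding exon.

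The arms also differ in how much of their sequence is intron. Introns make up 46.7% of the X, 39.6% of 2L, 40.0% of 3L and 46.2% of 3R, while intergenic sequence makes up 25.4%, 32.3%, 35.5% and 27.2%. Set against these, the share of peaks in introns was 1.24 times the share of sequence on the X, 1.14 times on 2L, 1.12 times on 3L and 0.953 times on 3R. The ratio for intergenic sequence was 1.09 on the X, 1.29 on 2L, 1.16 on 3L and 1.63 on 3R. The X and 3R thus have like shares of intron and intergenic sequence, and their peaks were divided differently between these classes.

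**Figure D2:**
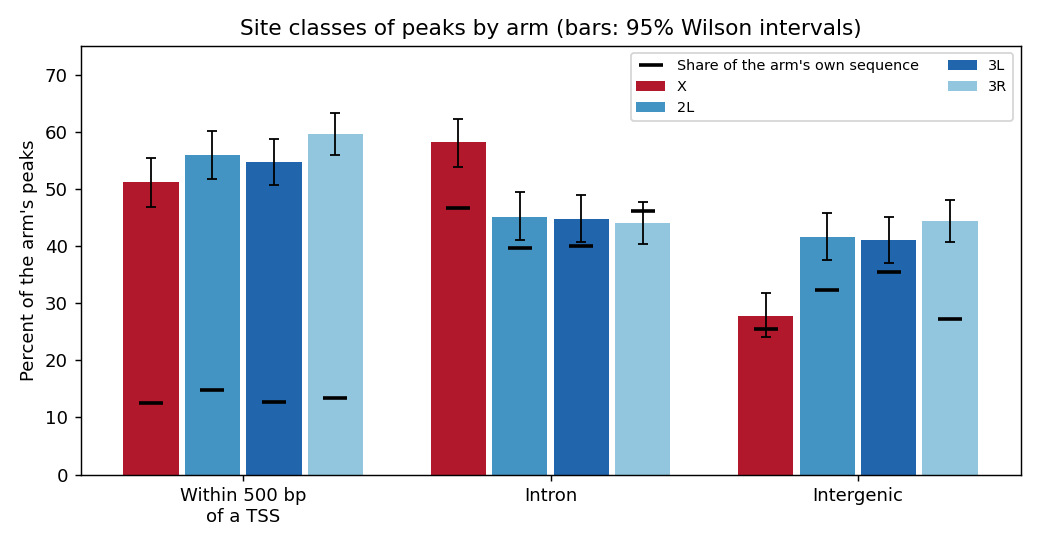
Percent of the peaks of each arm (vertical axis) within 500 bp of a TSS, in introns and in intergenic sequence, for X, 2L, 3L and 3R, with 95% Wilson intervals and a black dash for the share of the arm's own sequence. The X bar stands highest for introns (58.1%) and lowest for intergenic sequence (27.7%).

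Promoter peaks, those with a summit within 500 bp of a TSS, made up 271 of the X peaks (51.1%, Wilson interval 46.9 to 55.4). The share was 57.0% on 2L, 3L and 3R together, and 56.0%, 54.7% and 59.6% on each. The difference between the X and these arms together was -5.83 points (-10.6 to -1.02). With the regions of replicate 2 alone it was -3.31 points and its interval included 0 (-8.12 to 1.47). Sequence within 500 bp of a TSS makes up 12.6% of the X and 13.6% of those arms together. Set against sequence, the share of promoter peaks was 4.06 times as high on the X, 3.77 on 2L, 4.28 on 3L and 4.47 on 3R. Within 200 bp of a TSS lay 28.7% of X summits, against 37.5% (difference -8.78 points, -13.1 to -4.22). Among promoter peaks the summit was upstream of the nearest TSS in 82.3% on the X and in 81.9% on the other arms. Fewer X promoter peaks lay in intergenic sequence, 44.3% against 55.4% (difference -11.1 points, -17.6 to -4.42). Those near protein-coding starts also lay at 2 or more such genes less often on the X, 26.4% against 32.9% (difference -6.57 points, -12.4 to -0.196).

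Away from promoters, introns took most X peaks. Of the 259 X summits over 500 bp from every TSS, 219 were in introns (84.6%), against 68.7% on 2L, 3L and 3R, and 27 were intergenic (10.4%), against 25.4%. Per Mb of intron the X carried 19.9 such intron peaks (17.4 to 22.7), against 16.9 on 2L, 15.9 on 3L and 13.4 on 3R. The length used is all intron sequence of the arm, including that within 500 bp of a TSS. The Poisson interval of the X overlapped those of 2L (14.4 to 19.8) and 3L (13.7 to 18.4). These intron summits lay a median of 2008 bp from the nearest TSS on the X and 2026 bp on the other arms. First introns held 72.1% of them on the X and 74.6% on the other arms, and made up 49.9% and 44.6% of the intron sequence. In all, 30 shares were compared between the X and the autosomal arms, without adjustment, and the interval of the difference excluded 0 for 14.

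Among X-linked genes the strongest promoter peaks lay at Ugalt and Gapdh2. Ugalt had a pooled signal of 736, rank 17 of the 2868 peaks, and 357 in replicate 1 and 388 in replicate 2; its summit was 39 bp upstream of the TSS in chrX:2703719-2704045. Gapdh2 had a pooled signal of 626, with 321 in replicate 1 and 300 in replicate 2, and its summit lay 165 bp upstream. Both of these summits are intergenic, and in both genes the replicates were close to each other.

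Next came bbx, an HMG-box gene, at 520, with 224 in replicate 1 and 301 in replicate 2; this summit lies in an intron shared by bbx and waw. The Polycomb group gene ph-p followed at 420 (208 and 221 in replicates 1 and 2), with the summit in its 5' untranslated region, 430 bp downstream of the start. Hex-A, a hexokinase gene, had 355 (167 and 188), and Ptpmeg2, a protein tyrosine phosphatase gene, 355 (153 and 202). In these genes replicate 2 gave the higher value. At elav, the gene of a neuronal RNA-binding protein, the order was the other way, with 182 in replicate 1 and 171 in replicate 2 at a pooled signal of 353, and its summit lies inside an intron of the overlapping gene arg.

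Of the 12 genes that lead the X promoter peaks, the remaining ones lay between 294 and 336 in pooled signal. They are MFS10 (336), a transporter gene, moody (323), which encodes a receptor of the glial blood-brain barrier, Atf3 (302), a bZIP factor gene, CG2865 (299) and TRAM (294). At MFS10 the summit lies in 5' untranslated sequence within the overlapping genes MFS10 and CG15717. The replicates differed most at moody, with 121 in replicate 1 and 207 in replicate 2. All 12 summits but that of ph-p were upstream of the nearest start of their gene, 39 to 291 bp away.

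The second-strongest X peak was at no protein-coding promoter. At chrX:12751171-12751587, with a pooled signal of 664 (310 in replicate 1 and 356 in replicate 2), it lies in an exon of lncRNA:Vinr, 495 bp upstream of lncRNA:CR44619. Another peak, of 240, lies 491 bp downstream of that start, and one of 96.6 lies 3443 bp from it. The last of these was listed in replicate 2, at 55.4, and had no region within 100 bp in replicate 1.

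Strong X sites also lay within introns, away from annotated starts. The strongest was in Tlk, the gene of Tousled-like kinase, at chrX:3742077-3742376, 2316 bp from the nearest TSS, with a pooled signal of 619, 285 in replicate 1 and 338 in replicate 2. CG32772 had 515 (260 and 256) at 1289 bp. The norpA intron, in the gene of the phospholipase C of fly vision, had 487 (217 and 271) at 1381 bp. In all 3 introns the signal exceeded that of the ph-p promoter peak. Weaker intron peaks lay in Zw, the glucose-6-phosphate dehydrogenase gene (303), in Tob (298) and in CG9921 (280).

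The strongest intergenic X peaks over 500 bp from a TSS were weaker than the strongest in introns. As classes the medians were 62.6 (51.2 to 83.7, 27 peaks) for intergenic and 68.1 (60.4 to 73.5, 219 peaks) for intron peaks, with overlapping intervals. The strongest, at 193 (73.7 in replicate 1 and 117 in replicate 2), was 1848 bp upstream of out. A peak of 119 (57.5 and 62.2) lay 1726 bp upstream of Myc, which encodes a growth-promoting transcription factor. The others in this class were at most 106.

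Several X genes held clusters of peaks. Counting summits in a gene or within 500 bp of either end of it, 6.28% of X protein-coding genes held 2 or more (95% Wilson interval 5.34 to 7.38), against 4.58% on 2L, 3L and 3R (4.17 to 5.04). X genes were also longer, with a median of 2521 bp against 2080 bp, and the part of gene length was not tested. CHES-1-like, a forkhead factor gene 27048 bp long, held 9 peaks, 8 of them in introns, with signals between 49.5 and 289.5. CG1677 held 8 over 124709 bp, Tlk held 7, and Mnt, the gene of a bHLH antagonist of Myc, held 7, all in introns, with signals of up to 99.3. The cAMP phosphodiesterase gene dnc and the corepressor gene Smr each held 6, as did CG14434. Some of the peaks counted overlap each other, as do those with summits at 3255697 and 3255897 in dnc, so a count of peaks is not a count of separate sites. The shares of genes with 2 or more were not recomputed with neighbours left out.

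Of the 2196 protein-coding genes on the X, 280 had a promoter peak, a background of 12.8% against which gene groups are read here. On 2L, 3L and 3R it was 12.9%, and the difference of -0.134 points had an interval of -1.64 to 1.48. With the regions of replicate 1 alone the difference was -2.53 points (-4.06 to -0.899), among the stronger 50% of peaks -1.88 points, and with replicate 2 alone 0.278 points (-1.28 to 1.94). The 9 groups below were chosen by symbol and received no test. Their counts use all IDR peaks, including the 204 X peaks (38.5%) with a false discovery rate above 0.05, and were not recomputed without those.

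Ribosomal protein genes of the cytoplasm had a promoter peak in 7 of 14 cases on the X (50%). RpS10b had the strongest, at 175 (82.6 in replicate 1 and 87.7 in replicate 2), followed by RpS5a at 116 (44.4 and 70.1), RpS19a at 97.9 and RpL17 at 75.3. RpL22, at 46.0, had a region in replicate 2 and none in replicate 1. No promoter peak was listed at RpL7A, RpL35, RpL36, RpS6, RpS14a, RpS14b or RpS15Aa. Of 11 mitochondrial ribosomal protein genes, 1 had a peak, mRpS25 at 47.1, with a Wilson interval of 1.62% to 37.7% that includes the background.

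Ion channel and behaviour genes had promoter peaks in 5 of 13 cases. They were dnc (206), Hk, a potassium channel subunit gene (147), the clock gene per (96.8), amn, which encodes a neuropeptide of memory (70.6), and slgA (45.1). The channel genes para, Sh, eag, cac, na and shakB had none. In norpA, also of this group, 3 peaks lay in introns.

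Patterning and marker genes had few promoter peaks, and the intervals or limits of these groups include the 12.8% background. Among 21 classical visible loci 1 had one, ras at 50.7, and y, w, N, ct, sn, v, f and lz were among the 20 without. N, ct, sn and f held summits elsewhere in the gene, with signals of 43.1 to 90.2. The early sex and segmentation regulators (Sxl, sisA, sc, upd1, run, gt, btd and oc) had 0 of 8 (at most 37.5%, from 3 counts), and the eye and wing selector genes likewise had 0 of 8. In Sxl, the master switch gene of sex, 2 peaks lay in the gene body, the stronger at 164 (82.1 in replicate 1 and 81.5 in replicate 2), 1354 bp from the nearest TSS.

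Among signalling genes 2 of 12 had a promoter peak, the kinase gene sgg at 206 (103 in each replicate) and the phosphatase gene csw at 99.8. Raf, a kinase gene of the same group, held 4 peaks, none of them at a start, with the strongest at 158. Among 6 chromatin and transcription genes 1 had one, HP1b at 86.9 (43.3 and 44.2). Another 5 symbols chosen for this group were not found on the X. The group does not cover all such X genes: the Polycomb group gene ph-p, at 420, is outside it. Both groups stood at 16.7%, beside the background of 12.8%.

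Genes of dosage compensation had 0 of 3, a count too small to set any limit. The IDR summit nearest to roX1 was 5965 bp away, that nearest to roX2 was 44028 bp away and that nearest to mof, the gene of the acetyltransferase of the MSL complex, 19284 bp. Regions outside the IDR list did lie at roX1, with up to 32.3 in the pooled list, and replicate 2 listed 1 at roX2, of 28.5, where replicate 1 and the pooled list had none. The weakest X peak of the IDR list had a pooled signal of 42.55, and the strongest X region of the pooled list outside it 42.45.

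Among listed peaks the median signal of the X was close to that of the autosomal arms, while fewer of the very strongest peaks were on the X. The median signal was 71.4 on the X (exact order-statistic 95% interval 67.6 to 75.9) and 73.4 on 2L, 3L and 3R (70.8 to 76.2). The IDR list holds the pooled regions of highest signal, so all arms share the same cutoff. The weakest peak was at 42.55 on the X and at 42.50 on those arms. A shared cutoff can make medians alike, since weaker sites drop out of the list. The medians therefore cannot show whether X sites in general are as strong. The highest was 736 on the X, against 1368 on 2L, 1624 on 3L and 976 on 3R. Of the 287 strongest peaks of all arms, 33 were on the X (11.5%, 8.31 to 15.7), and of the next 287, 63 were (22.0%). The strongest 287 held 6.23% of X peaks and 11% of those on 2L, 3L and 3R, a difference of -4.77 points (-7.10 to -2.02). The X took 1 of the strongest 20 and 8 of the strongest 100.

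**Figure D3:**
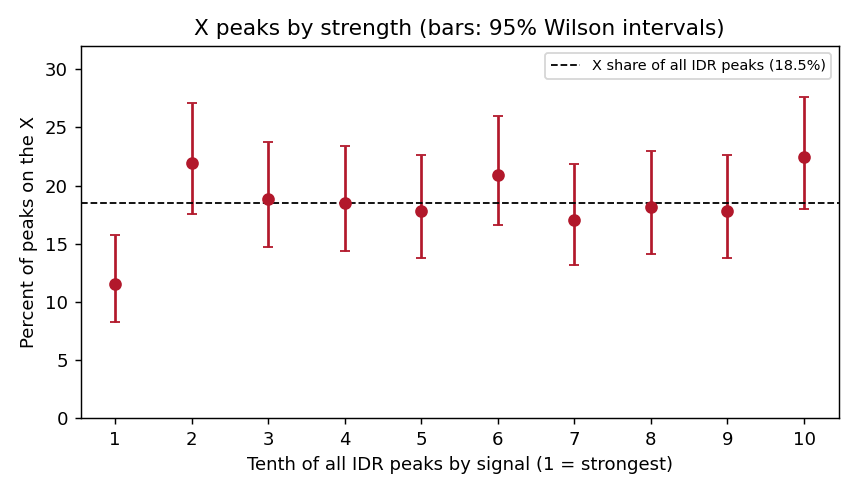
Percent of peaks that lie on the X (vertical axis) in 10 equal groups of all IDR peaks ordered by signal (horizontal axis, 1 is the strongest), with 95% Wilson intervals and a dashed line at the X share of all peaks, 18.5%. The strongest group is at 11.5% and its interval ends below the line; the others lie between 17.1% and 22.5%.

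Promoter peaks had a median signal of 75.5 on the X (69.1 to 86.9), against 83.4 on 2L, 3L and 3R (78.8 to 89.8). For peaks elsewhere the medians were 68.2 (62.3 to 72.8) and 63.5 (61.2 to 66.8). The intervals overlap in both classes, and these medians too are of peaks above the shared cutoff. Promoter summits made up 69.8% of the strongest 53 X peaks and 49.1% of the weakest 53.

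Most X peaks were seen in both replicates. Of the 530 X peaks, 475 (89.6%) had a region within 100 bp in both replicate lists, 20 in replicate 1 alone, 33 in replicate 2 alone and 2 in neither. Among the 2868 strongest regions of both replicates, 317 X peaks were matched (59.8%), against 57.8% of peaks on 2L, 3L and 3R (difference 2.02 points, -2.77 to 6.71). All of the strongest 53 X peaks met that stricter match and 0 of the weakest 53 did. The peaks were selected by both replicates and by pooled signal, and the replicate lists include background. Both kinds of match therefore follow in part from that selection and do not test reproducibility. Across the 475 peaks listed in both, which are not independent, Spearman's rho of the replicate signals was 0.747.

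The replicates were not quite balanced on the X. The median ratio of replicate 1 to replicate 2 signal was 0.927 (0.886 to 0.958) on the X, against 0.984 on 2L, 0.975 on 3L and 0.980 on 3R, and 0.980 on these together (0.959 to 0.997). The arm 2R, not among the compared arms, had 0.933. The 2868 strongest regions of replicate 1 included 480 on the X and those of replicate 2 included 534. With 1 library on each side, this difference is between libraries.

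Signals differed over 2-fold at 46 X peaks, with replicate 1 higher at 17 and replicate 2 higher at 29. The strongest of these was in an intron of Hers, 484 bp from a start, at 191 (103 in replicate 1 and 50.3 in replicate 2). The next, at 177 (42.5 and 108), was in an intron shared by CG32795 and kirre, and the third, at 138 (40.5 and 93.2), was at the start of lawc within Trf2, the gene of a TBP-related factor. At Hers replicate 1 was the higher library, and at the other sites replicate 2 was. Among X peaks with no region within 100 bp in a replicate, that of CG1737 (161) was listed in replicate 2 alone and that at Cox17 (142), a gene of cytochrome oxidase assembly, in replicate 1 alone. A second IDR peak at the Cox17 promoter, of 57.4, had a region in both replicates, at 41.5 in replicate 1 and 74.3 in replicate 2.

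**Figure D4:**
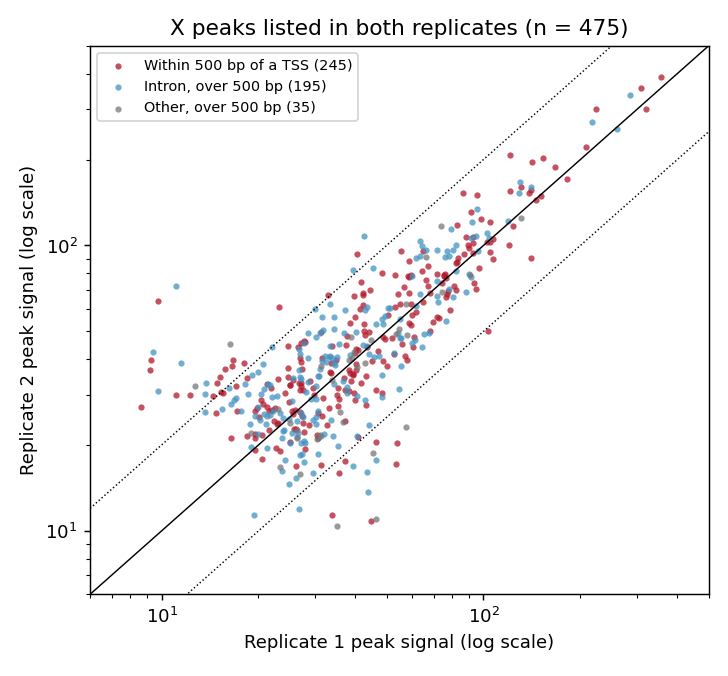
Peak signal in replicate 2 (vertical axis, log scale) against replicate 1 (horizontal axis, log scale) for the 475 X peaks listed in both replicates, coloured by site class, with the line of equality and dotted lines at a 2-fold difference. Of these peaks 46 lie outside the dotted lines, 29 of them with replicate 2 higher.

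Sequence words were counted within 100 bp of each summit, on both strands, and set beside windows of that size tiled over the X and at all IDR peaks. The GA repeat GAGAG was in 19.6% of X windows (21.5% of tiles, 22.1% at all peaks), the CA repeat CACACA in 17.2% (17.1%, 15.3%), the BEAF-32 core CGATA in 29.4% (22.2%, 28.5%) and the E-box CAGCTG in 9.06% (8.50%, 8.30%). The Motif 1 core GGTCACA was in 2.64% (1.75%, 2.41%), the Motif 7 core CATCNCT in 10% (7.16%, 9.10%) and the TATA word TATAAA in 33.0% (20.5%, 36.9%). For the CA repeat, the BEAF-32 core, the E-box, Motif 1 and Motif 7, the difference between the X and the autosomal arms had an interval that included 0.

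The core TATCGAT of the DNA replication-related element (DRE), a promoter element bound by DREF, was in 51 X windows (9.62%, 7.40 to 12.4), against 5.91% on 2L, 3L and 3R, a difference of 3.71 points (1.19 to 6.69). Tiles held it in 2.92% of cases on the X and in 2.41% on those arms, and all IDR peaks in 6.70%. At promoter summits the share was 15.5% on the X (11.7 to 20.3), against 7.67% on 2L, 8.25% on 3L and 10.3% on 3R (7.77 to 13.6), so that the intervals of the X and 3R overlap. The difference of all summits was 1.68 points with the regions of replicate 1 alone and 2.01 points among the stronger 50% of peaks, and both intervals then included 0. The DRE core contains the BEAF-32 core on the opposite strand, so each of the 51 windows counts for both. Leaving them out, the BEAF-32 core was in 105 X windows (19.8%, with 19.2% in tiles of the X) and in 22.5% of windows on 2L, 3L and 3R (18.5% in tiles of these arms).

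Examples at named genes show the word in capitals within 61 bp of the plus strand, TATCGAT or its reverse complement ATCGATA.
CHES-1-like, chrX:7697109-7697169: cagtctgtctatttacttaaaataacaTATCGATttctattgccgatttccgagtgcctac
dnc, chrX:3255754-3255814: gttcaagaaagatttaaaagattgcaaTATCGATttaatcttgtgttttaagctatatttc
RpS10b, chrX:19597928-19597988: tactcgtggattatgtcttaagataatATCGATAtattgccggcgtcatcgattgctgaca
These windows lie at promoter peaks of 289.5, 206 and 175. The word was 2 bp from the summit at RpS10b, 60 bp at CHES-1-like and 87 bp at dnc.

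The word ACAGTGG was added after a count of 7- and 8-letter words over the peaks of all arms, so its excess over tiles is by choice. It was in 60 X windows (11.3%, 8.90 to 14.3), against 7.29% on 2L, 3L and 3R (difference 4.03 points, 1.28 to 7.21). Tiles held it in 2.56% of cases on the X and in 2.33% on those arms, and all IDR peaks in 7.85%. By arm the share was 9.33% on 2L, 5.03% on 3L and 7.59% on 3R, and that of 2L lies within the X interval. Over 500 bp from every TSS the X had 16.6% (12.6 to 21.6), against 9.32% on 2L, 6.51% on 3L and 11.3% on 3R (8.15 to 15.6), or 9.11% on these together, a difference of 7.49 points (2.88 to 12.8). At promoters the X had 6.27%, against 5.92% (difference 0.357 points, -2.47 to 4.12). These differences were not tested against each other. With either replicate's regions alone the difference of all summits kept its sign, at 5.91 points for replicate 2 and 4.04 for replicate 1, and both intervals excluded 0. The word, here as its reverse complement CCACTGT, lies near 2 of the strongest X summits.
norpA, chrX:4325037-4325097: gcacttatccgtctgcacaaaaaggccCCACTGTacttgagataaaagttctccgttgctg
ph-p, chrX:2137978-2138038: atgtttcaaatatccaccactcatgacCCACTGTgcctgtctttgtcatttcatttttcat
The copy at norpA is 77 bp from the summit and that at ph-p is 67 bp.

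TATA words were in fewer X windows than autosomal ones, 33.0% against 37.9% (difference -4.88 points, -9.36 to -0.214). Tiles also held them less often on the X, 20.5% against 22.1% on 2L, 3L and 3R, and the part of the arm sequence was not tested. GAGAG was in fewer X promoter windows, 17.3% against 22.9% (difference -5.55 points, -10.4 to -0.0139), with 21.5% and 21.4% in tiles. Both intervals end close to 0, and 27 motif shares were compared without adjustment.

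**Figure D5:**
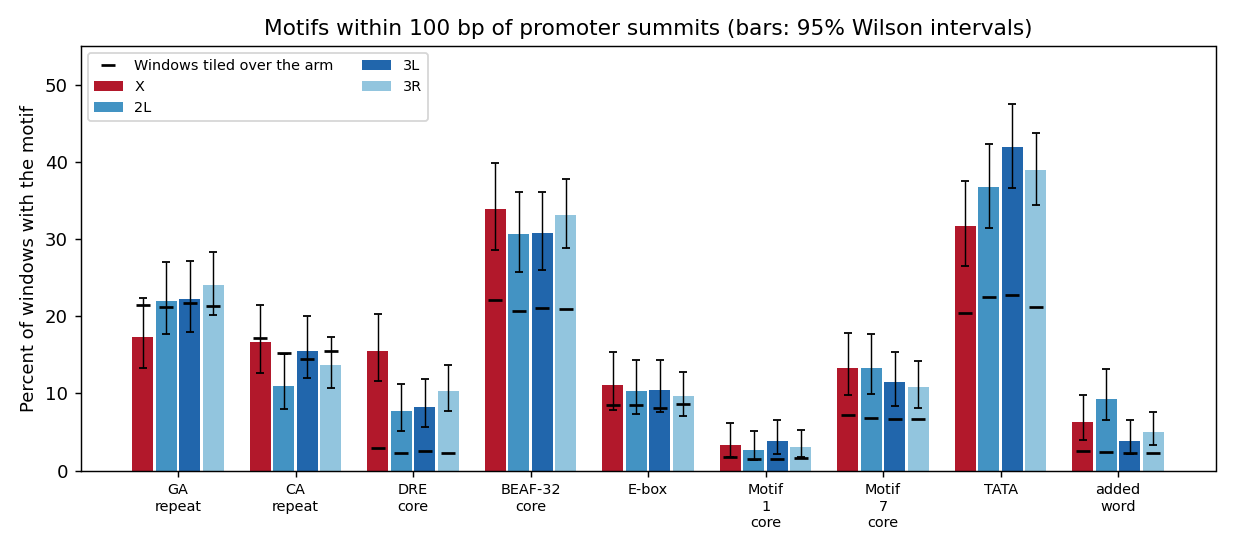
Percent of windows of 100 bp to either side of promoter summits (vertical axis) that hold each searched motif, for X, 2L, 3L and 3R, with 95% Wilson intervals and black dashes for windows tiled over the arm. The DRE core is at 15.5% on the X and at 7.67%, 8.25% and 10.3% on 2L, 3L and 3R.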

How the data were processed

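ChIP-seq peak lists of 2 biological replicates of 1 group were used, in narrowPeak format, with 30000 regions, background included, per replicate and for both pooled, and with 2868 IDR peaks on dm6 and 2855 on dm3. Peak signal was deposited by the authors in these lists, on a scale not given in the sources used here, as are the aligner, the peak caller and the read totals. The authors deposited significance as −log10 of the q-value, from which a false discovery rate of at most 0.05 was taken as an alternative. The IDR peaks are the 2868 pooled regions of highest signal, and 2590 of them have a width of 430 bp, so summits were used in place of peak borders. Since the list uses both replicates at once, it has no error per replicate, and 204 X peaks (38.5%) had a false discovery rate above 0.05, up to 0.231.

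Coordinates are 1-based on dm6. Annotation was Ensembl release 115 on the same assembly without transposable elements, with 18164 genes and 23581 TSSs on the X, 2L, 2R, 3L, 3R and 4, of which 13945 genes are protein-coding. A summit was assigned, in this order, to a coding exon, a 5' or 3' untranslated region, another exon, an intron or intergenic sequence. Replicate regions were matched where summits lay within 100 bp.

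Shares have 95% Wilson intervals, differences of shares (X minus 2L, 3L and 3R) Newcombe intervals, densities exact Poisson intervals and medians exact order-statistic intervals. Peaks of 1 arm are not replicates, so no p-values were computed, and the arms and each replicate alone show the spread. The labels number the replicates as biological ones and do not say whether fly cultures were separate. Where no gene of a group had a peak, the upper limit was set at 3 counts. Members, gene groups and named genes were chosen with earlier results of these data known; named are the 12 genes with the strongest X promoter peaks, the 6 strongest peaks each in introns and in intergenic sequence, up to 4 bound genes per group and the largest disagreements between replicates. Some items that this rule takes up are left out of the text. Other genes named, such as those with several peaks or without one, were chosen after their values were seen. Alternatives were the stronger 50% of IDR peaks, the false discovery rate limit, each replicate alone, windows of 200 and 1000 bp, 1 TSS per gene, protein-coding genes alone, matching within 300 bp or by 50% reciprocal overlap, and the dm3 lists. Chosen after seeing the data were the addition of 2R, leaving out peaks within 1000 bp of a stronger one, and each replicate alone for the pooled regions, the peaks per gene and the motifs, with the stronger 50% and the false discovery rate limit for motifs. Code was tested on simulated data and run with scipy 1.17.1, pandas 2.3.3, numpy 2.4.6 and matplotlib 3.10.9 under Python 3.11.15.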

Additional observations from a re-analysis of the deposited data

How the results depend on the processing

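No paired analysis was possible because there is only 1 group of samples. In all, 18 results were recomputed, which gave 102 values under the alternatives, and the interval of the X difference stayed on the same side of 0 in introns (9.08 to 15.9 points) and in intergenic sequence (-18.3 to -11.3) under every alternative tried.

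The difference of promoter shares had an interval that included 0 at -3.31 points without replicate 1, at -3.74 with a window of 1000 bp and at -4.5 with neighbours left out. For the share of genes with a promoter peak, the interval excluded 0 at -1.88 points for the stronger 50% of peaks and at -2.53 without replicate 2. The DRE core lost its call at 2.01 points for the stronger 50% of peaks, 1.85 with the 0.05 limit on the false discovery rate and 1.68 without replicate 2. The cause of these changes was not tested.

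Over the runs without 1 replicate, the X share was 16.7% to 18.6%, density 20.4 to 22.7 peaks per Mb and 21.9 to 24.3 per 100 protein-coding genes, the promoter share 54% to 54.5% (difference -7.1 to -3.31 points), the intron share 53.7% to 55% (difference 9.08 to 12.6), the intergenic share 30.6% to 31.1% (difference -12.4 to -11.3), median signal 39.7 to 40.5, the gene share 12.6% to 13.8% (difference -2.53 to 0.278), the difference in the share of a replicate's regions among its 2868 strongest 2.01 to 2.91, the DRE core 1.68 to 3.96 and the added word 4.04 to 5.91.

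For the stronger 50% of peaks, density was 10.8 per Mb, the promoter share 55.5%, median signal 123, the gene share 6.79% and the matched share 94.1%. With the 0.05 limit they were 13.8 per Mb, median signal 103 and a gene share of 8.7%. The promoter share was 28.7% at 200 bp, 64.7% at 1000 bp and 38.1% with 1 TSS per gene, and the gene share 7.65%, 15% and 10.7%. Among peaks over 500 bp from a TSS, 84.6% were in introns and 10.4% intergenic. Matching within 300 bp gave 67.7%, and the dm3 list a median signal of 65.3. These settings change how many peaks, or how wide a window, are counted. Read depth is unknown, so peaks missed for lack of reads cannot be told from absent ones.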

Other observations

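Noncoding genes of the X had promoter peaks at low rates. Of 483 ncRNA gene entries 24 had one (4.97%), against 3.11% of those on 2L, 3L and 3R, and 13 of the 24 had a peak at no protein-coding start. Entries can share a peak: that of 127 in an intron of Tis11 counts for mir-9377, FBtr0445484_df_nrg and FBtr0445485_df_nrg. Next to lncRNA:CR44619, the strongest were at lncRNA:enrr, whose peak of 353 is that of elav, and at asRNA:CR44429 (189, with 92.8 in replicate 1 and 93.8 in replicate 2), in an intron of gce, a juvenile hormone receptor gene. Of 24 tRNA genes 2 had a peak (8.33%, against 3.57% on 2L, 3L and 3R), tRNA:Phe-GAA-1-2 beside RpL17 (75.3) and tRNA:Gln-TTG-2-1 (62.3). Of 31 snoRNA genes 1 had one (3.23%, against 2.84%), and this is the same peak as that of RpL17 and tRNA:Phe-GAA-1-2. The annotation does not tell overlapping genes apart at a summit, so a peak within 500 bp of several starts was counted for each.

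A count of 5 summits each was found in, or within 500 bp of, ph-p, NFAT, the glutathione synthesis gene Gclc, RhoGAP18B and Moe, the gene of the actin linker moesin. Signals reached 420 in ph-p and 241 in NFAT, where all 5 were in introns, and did not exceed 72.6 in Moe.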
